A study of Arabidopsis thaliana with 6 samples.

Results

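The sucrose transporter genes SUC1 to SUC9 of *Arabidopsis thaliana* are described here, in RNA-seq libraries of 14-day-old seedlings. The 9 genes were chosen by locus identifier out of 32833 loci in the count files. No measured value decided which loci belong, but the family was singled out with earlier results of these libraries known. The values below are therefore descriptions of the libraries and of one fit over all genes, and the p-values are not independent evidence about the family. There were 6 libraries, 2 for each genotype (Col-0 as wild type, *fio1-1*, *fio1-2*), all from untreated plants kept in long days. FIO1 encodes an RNA adenosine methyltransferase related to human METTL16. The allele *fio1-1* is a chemically induced splice-site mutation. For the other mutant the sources disagree. The labels call it *fio1-2*, whereas the methods list *fio1-5*, a CRISPR line made for the study. In the study's text *fio1-2* names a T-DNA knock-down line analysed by other authors, which it contrasts with its own mutants. The study describes RNA-seq of its own only for Col-0, *fio1-1* and *fio1-5*, so by its text these 2 libraries would be *fio1-5*. The label is kept here, and the allele of these 2 libraries was not checked from the counts. RNA came from pooled seedlings, and the study calls the 2 libraries of a genotype biological replicates. It does not say whether these were grown separately, so p-values measure only the spread between these pools. The labels describe soil and the methods describe plates of mineral medium with agar, so the growth medium is uncertain.

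SUC proteins are sucrose-proton symporters, which use the proton gradient across a membrane to move sucrose into the cell or out of the vacuole. In *Arabidopsis* leaves, sucrose leaves the mesophyll through SWEET exporters into the cell wall space and is then pulled into phloem companion cells by SUC2. The other members act mainly in sink tissues, in pollen, in seeds or at the vacuolar membrane.

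Library totals ran from 9717111 to 13055457 counts, and leaf genes (RBCS1A, LHCB1.3, GAPB, PRK) and root genes such as PYK10 and CASP1 were read in every library. Both summed levels differed between genotypes. Root genes passed in both directions in each mutant, whereas leaf genes did so only in *fio1-2* and passed only as higher in *fio1-1*. The summed root list stood at 1730 and 1710 CPM in Col-0, 1857 and 1912 CPM in *fio1-1*, and 2334 and 2279 CPM in *fio1-2*, with 2 of 6 genes passing as higher and 2 as lower in *fio1-1*, and 3 and 2 in *fio1-2*. The summed leaf list stood at 34657 and 34453 CPM in Col-0, 43476 and 40987 CPM in *fio1-1*, and 36232 and 36385 CPM in *fio1-2*, with 3 of 4 genes passing as higher in *fio1-1*, and 1 as higher and 3 as lower in *fio1-2*. Of all tested genes, 14.2% passed as higher and 14.3% as lower in *fio1-1*, and 16.4% and 16.1% in *fio1-2*. Most of the root sum came from PYK10, and most of the leaf sum from LHCB1.3 and RBCS1A. FIO1 itself was measured at 7.81 to 10.04 CPM (counts scaled by library size) in the group means and did not pass the test in either mutant, which does not check a splice-site allele. Of 12 seed genes, 11 passed as higher in *fio1-1* and 12 in *fio1-2*, against 14.2% and 16.4% of all tested genes. Among these 12, 6 were at 0 in each Col-0 library and none in the mutants. They entered the test through mutant counts, because Col-0 was below the low-count filter, so they could hardly pass as lower. The summed level of these seed genes was 1.74 and 2.31 CPM in Col-0, 51.0 and 49.8 CPM in *fio1-1*, and 8923 and 9230 CPM in *fio1-2*. Levels are CPM scaled with TMM factors, and a gene passed the test when its limma-voom p, adjusted over all 21268 tested genes, was under 0.05.

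Of the 9 genes, 6 were tested and 3 were not. SUC6 and SUC8 had 0 counts in all 6 libraries. SUC9 had 4 counts in *fio1-2* replicate 1 and 0 counts in the other 5 libraries. The 0 counts allow up to 3 counts per group, which is 0.149 CPM in Col-0, 0.149 CPM in *fio1-1* and 0.127 CPM in *fio1-2*, counting error only. SUC8 and SUC9 are known mainly from flowers and pollen, and SUC6 is regarded as a pseudogene in Col-0. Of 5 pollen genes, PPME1 and AGL104 were at 0 throughout and VGD1 had 1 count. The summed pollen list stood at 3.18 to 7.07 CPM, most of it from ACA9.

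SUC7 showed the largest difference in the family, since its reads were almost lost in both mutants. SUC7 (AT1G66570, chromosome 1, 24835244 to 24837441 on the minus strand of TAIR10.1) has 3 coding exons. It is a close relative of SUC6, SUC8 and SUC9, and it too has been described as a pseudogene in Col-0. SUC7 had 78 and 88 counts in Col-0, 2 and 2 in *fio1-1*, and 3 and 4 in *fio1-2*. In CPM these levels were 7.97 and 8.46 in Col-0, 0.199 and 0.199 in *fio1-1*, and 0.287 and 0.306 in *fio1-2*. Each of the 4 mutant libraries thus lay far below both wild-type libraries, and the groups did not overlap.

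SUC7 fell, at a log2 fold change of -5.06 for *fio1-1* (SE 0.641, limma-voom adjusted p = 1.12e-09) and -4.61 for *fio1-2* (SE 0.550, limma-voom adjusted p = 1.58e-10). These are 33.3-fold and 24.3-fold lower levels. From the summed counts, 166 in Col-0 against 4 in *fio1-1*, the ratio of rates was 41.4 with a 95% exact conditional interval of 15.9 to 154. Against the 7 counts of *fio1-2* it was 27.7 with an interval of 13.1 to 69.8. The interval covers counting error only. SUC7 entered the test through its Col-0 counts alone, because both mutants were below the low-count filter.

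Because SUC7 has close copies, its coding sequence was compared with those of its relatives to see whether reads could be told apart. Its coding sequence shared 93.8% of aligned bases with SUC8, 93.7% with SUC6, 89.4% with SUC9, 78.2% with SUC1, 76.4% with SUC5 and 74.8% with SUC2. The lines below give 30 coding bases of SUC7 and the aligned bases of its relatives, chosen as the ungapped in-frame stretch within 1 exon where even the closest of SUC6, SUC8 and SUC9 differs most from SUC7. They run 5′ to 3′ on the coding strand, are taken from the RefSeq assembly TAIR10.1, and capitals mark the bases that differ from SUC7.
SUC7: gccacgggtgctttgctggtcgctgtttct
SUC6: gcTaTgggCgcCttActTgtcgcCgttGct
SUC8: gccacAggCgcCttgctTgtAgctgttGct
SUC9: gccacTggtgcCttgctTgtTgcCCttGct
SUC5: gccGcCggAgTCGCActCgtAgcCgtCtcG
SUC1: gccacCggAgcCGCActCgtcgcCgtCGct
SUC2: gTcGcTggAgctGGTTtAgtcAcCgttGct
The SUC7 line is chr1:24836904-24836933, minus strand, coding bases 310 to 339. Within these 30 bases SUC8 differs at 6, SUC9 at 7, SUC6 at 8, SUC1 at 10, SUC2 at 12 and SUC5 at 13. The same comparison over whole transcripts was made in windows. Of the 1691 windows of 50 bases in the SUC7 transcript, 116 occurred identically in another member. Of its 1641 windows of 100 bases, 0 did. SUC1, SUC2, SUC3, SUC4 and SUC5 shared no window of 50 bases with any other place in the genome. SUC6, SUC8 and SUC9 had the counts given above. How reads from shared windows were treated, and their part in the SUC7 difference, was not tested.

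The genes on either side of SUC7 were also read. WRKY64, 442 bases away at lower coordinates, had 0 counts in all libraries. SAG24, which encodes a ribosomal protein L10 and lies 1648 bases away on the opposite strand, had 281 and 281 CPM in Col-0, 161 and 153 CPM in *fio1-1*, and 154 and 153 CPM in *fio1-2*. SAG24 fell as well, with log2 fold changes of -0.84 and -0.87 (limma-voom adjusted p = 1.76e-24 and 5.14e-26), which is far less than SUC7. No annotated gene overlaps SUC7 or any other member.

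**Figure D1:**
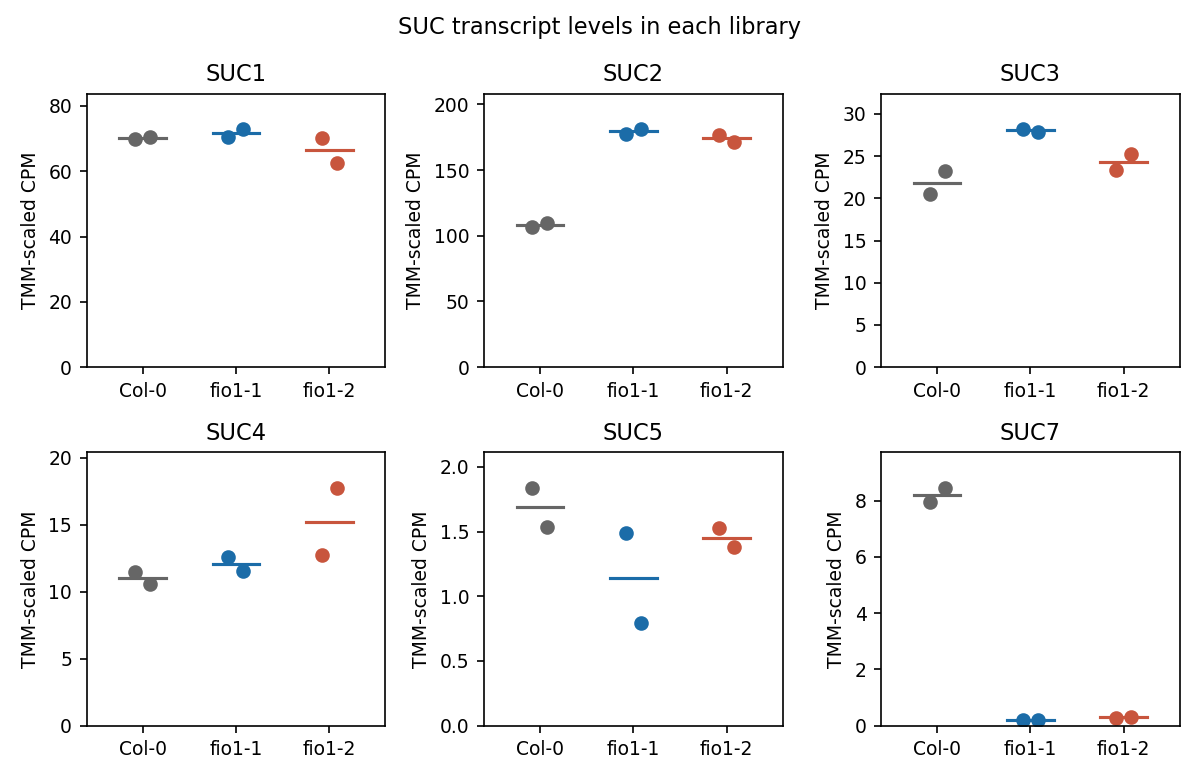
Levels of the 6 tested SUC genes in TMM-scaled CPM (vertical axis, from 0, a scale per gene), by genotype (horizontal axis). Points are libraries and lines are means of 2, with SUC7 between 0.199 and 0.306 CPM in the 4 mutant libraries against 7.97 and 8.46 CPM in Col-0, and SUC2 above 170 CPM in each mutant library.

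SUC2 moved in the other direction and was the most abundant member. SUC2 (AT1G22710, chromosome 1, 8030587 to 8033156) is the companion-cell symporter that loads sucrose into the phloem, and plants without it are stunted and retain sugar in their leaves. Its level was 106 and 110 CPM in Col-0, 178 and 181 CPM in *fio1-1*, and 177 and 172 CPM in *fio1-2*. The mutant libraries lay together and well above both wild-type libraries. SUC2 rose by 0.73 on the log2 scale in *fio1-1* (SE 0.0542, limma-voom adjusted p = 1.31e-18) and by 0.69 in *fio1-2* (SE 0.0533, limma-voom adjusted p = 1.03e-17). These are 1.66-fold and 1.61-fold rises. The difference between the mutants was -0.04 (95% interval -0.14 to 0.05, limma-voom adjusted p = 0.597). AT1G22700, the gene 450 bases from SUC2 on the same strand, fell by 0.49 and 0.70 on the log2 scale (limma-voom adjusted p = 1.35e-09 and 4.64e-15).

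Markers of the phloem were read beside SUC2, because its transcript is confined to companion cells. In these bulk libraries, more companion cells and more SUC2 RNA per cell cannot be told apart. All 10 phloem genes were tested. Their summed level was 308 and 324 CPM in Col-0, 419 and 419 CPM in *fio1-1*, and 410 and 422 CPM in *fio1-2*, so the phloem sum was higher in each mutant library too. Most of the phloem sum came from AHA3 and PP2-A1. In *fio1-1*, 5 of the 10 phloem genes passed the test as higher and 0 as lower, where 14.2% and 14.3% of all tested genes did, the median of the list being 0.24 (log2). In *fio1-2*, 6 passed as higher and 0 as lower, against 16.4% and 16.1% of all tested genes, with a median of 0.38. The median over all tested genes was 0.01 in *fio1-1* and 0.00 in *fio1-2*. The companion-cell proton pump AHA3, which maintains the gradient that SUC2 uses, rose by 0.42 and 0.41 on the log2 scale (limma-voom adjusted p = 1.78e-08 and 1.25e-08). The phloem lectin gene PP2-A1 rose by 0.63 and 0.48. The sieve-element gene SEOR1, which encodes a filament protein, rose by 0.42 and 0.37. AKT2, a phloem potassium channel, rose by 0.99 in *fio1-2*, while its log2 fold change in *fio1-1* was 0.21 (limma-voom adjusted p = 0.409). The regulators OPS and NAKR1 passed in neither mutant. Seed genes moved with genotype as well, by far more in *fio1-2* than in *fio1-1*. The summed root and leaf lists given above differed between genotypes too. The part of these lists in the SUC2 difference was not tested.

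SUC1, the next most abundant member, stayed close to its wild-type level. SUC1 (AT1G71880, chromosome 1, 27054030 to 27056464) encodes a plasma membrane symporter of roots, trichomes and pollen that has been tied to sucrose-induced anthocyanin. Its level was 69.8 and 70.6 CPM in Col-0, 70.4 and 72.9 CPM in *fio1-1*, and 70.3 and 62.5 CPM in *fio1-2*. The ranges overlap, and *fio1-2* replicate 2 was the lowest library. The log2 fold change was 0.03 in *fio1-1* (95% interval -0.11 to 0.17, limma-voom adjusted p = 0.806) and -0.09 in *fio1-2* (95% interval -0.23 to 0.05, limma-voom adjusted p = 0.345). The intervals leave out a change of the size seen for SUC2. The summed root list was higher in both mutants, but most of that sum came from PYK10. Of its 6 genes, 2 passed as higher and 2 as lower in *fio1-1* (median -0.18, log2). In *fio1-2*, 3 passed as higher and 2 as lower (median 0.30). The part of the root list in the SUC1 values was not tested.

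SUC3 and SUC4 each passed the test in 1 mutant, by small amounts. SUC3 (AT2G02860, named SUT2 by RefSeq, chromosome 2, 828279 to 832619) encodes a symporter of sieve elements and sink cells with a long cytosolic loop. It was at 20.5 and 23.2 CPM in Col-0, 28.2 and 27.9 CPM in *fio1-1*, and 23.4 and 25.3 CPM in *fio1-2*. Both *fio1-1* libraries lay above all others, and *fio1-2* lay only just above Col-0. SUC3 rose by 0.36 on the log2 scale in *fio1-1* (SE 0.112, limma-voom adjusted p = 0.0101), and the value in *fio1-2* was 0.16 (SE 0.111, limma-voom adjusted p = 0.291). The mutants differed by -0.20 (95% interval -0.41 to 0.01, limma-voom adjusted p = 0.196), so a rise in *fio1-1* alone was not shown. The call in *fio1-1* was lost without Col-0 replicate 1 (0.27), without *fio1-1* replicate 1 (0.35) and under DESeq2 (0.35, adjusted p = 0.106).

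SUC4 (AT1G09960, named SUT4 by RefSeq, chromosome 1, 3243986 to 3247216) encodes the symporter of the vacuolar membrane, which lets sucrose out of the vacuole. Its level was 11.4 and 10.6 CPM in Col-0, 12.6 and 11.5 CPM in *fio1-1*, and 12.7 and 17.8 CPM in *fio1-2*. The high value came from 1 library, *fio1-2* replicate 2. SUC4 rose by 0.47 on the log2 scale in *fio1-2* (SE 0.155, limma-voom adjusted p = 0.0135), and the value in *fio1-1* was 0.13 (SE 0.168, limma-voom adjusted p = 0.608). Without *fio1-2* replicate 2 the rise was no longer called (0.21, limma-voom adjusted p = 0.440). It was also lost without Col-0 replicate 2 (0.41) and under DESeq2 (0.47, adjusted p = 0.137). The difference of *fio1-2* from *fio1-1* was 0.34 (limma-voom adjusted p = 0.111), and by 0.56 without *fio1-2* replicate 1 (limma-voom adjusted p = 0.0109).

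SUC5 (AT1G71890, chromosome 1, 27058381 to 27060786) is the tandem neighbour of SUC1, 1916 bases away on the same strand, and shares 84.3% of aligned coding bases with it. It is known from the endosperm, the nutritive tissue around the embryo. SUC5 had 18 and 16 counts in Col-0, 15 and 8 in *fio1-1*, and 16 and 18 in *fio1-2*. All libraries lay under 2 CPM, and only *fio1-1* replicate 2 stood lower. The log2 fold change was -0.60 in *fio1-1* (95% interval -1.53 to 0.33, limma-voom adjusted p = 0.364) and -0.22 in *fio1-2* (95% interval -1.06 to 0.62, limma-voom adjusted p = 0.739). With so few counts, a change within these intervals was not detectable at this depth. The seed gene EPR1, known from the endosperm, was at 0 counts in both Col-0 libraries, at 54 and 54 counts in *fio1-1* and at 806 and 926 counts in *fio1-2*.

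Counted over the family, 2 members passed the test as higher and 1 as lower in *fio1-1* (SUC2, SUC3 and SUC7), where 14.2% of all tested genes passed as higher, 14.3% as lower and 28.6% in either direction. In *fio1-2*, 2 passed as higher and 1 as lower (SUC2, SUC4 and SUC7), against 16.4% and 16.1% of all tested genes, 32.5% together. With a log2 fold change minimum of 1, as the study used, SUC7 was the only member called in either mutant, while 2.92% of tested genes were called higher, 1.99% lower and 4.91% either way in *fio1-1*, and 4.24%, 1.7% and 5.93% in *fio1-2*. Nothing is read from these counts, since the family was chosen with these comparisons known. Both mutants were set against the same Col-0 libraries, so their fold changes are not independent of each other. Between the mutants, 0 of the 6 tested members passed in limma-voom, edgeR or DESeq2, against 18.1% of all tested genes (9.31% higher and 8.76% lower in *fio1-2*), and with the fold minimum 2.68% (2.13% higher and 0.545% lower). At an unadjusted p under 0.05, 1 member (SUC4) passed in limma-voom and in edgeR and 0 in DESeq2.

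**Figure D2:**
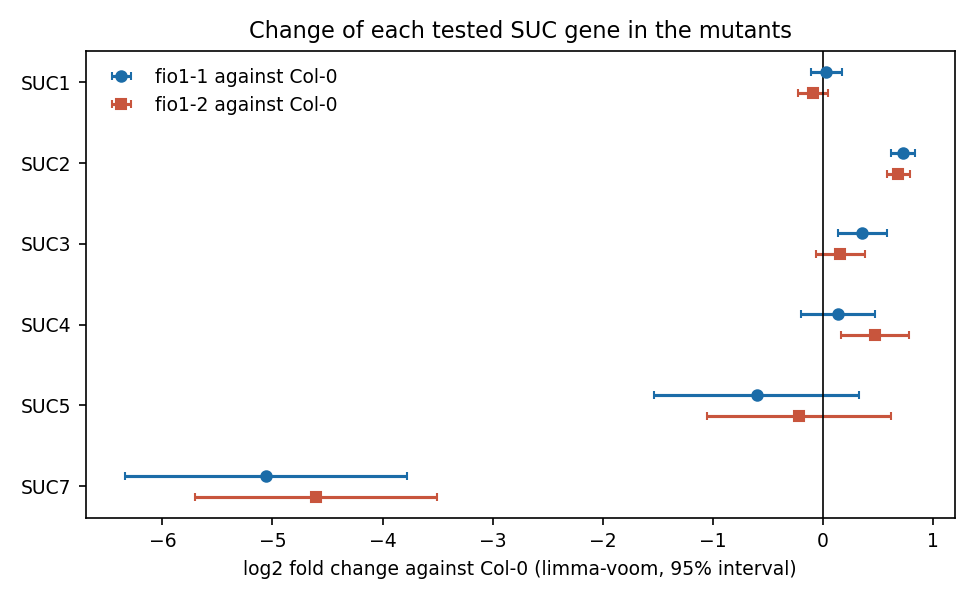
Log2 fold change of each tested SUC gene in *fio1-1* (circles) and *fio1-2* (squares) against Col-0, with 95% intervals from limma-voom. SUC7 lies at -5.06 and -4.61 and SUC2 at 0.73 and 0.69, whereas the intervals of SUC1 and SUC5 include 0 in both mutants.

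Levels of different members were compared per length, in TPM (transcript levels after division by length) from RefSeq exon lengths. In Col-0 the order was SUC2 (76.6 TPM), SUC1 (46.1 TPM), SUC3 (13.4 TPM), SUC4 (7.21 TPM), SUC7 (6.86 TPM) and SUC5 (1.32 TPM). SUC4 and SUC7 overlapped between libraries, at 6.93 to 7.49 TPM and 6.65 to 7.07 TPM, and the other neighbours did not. SUC7 dropped to the last place among the tested members in the mutants, with 0.159 TPM in *fio1-1* and 0.244 TPM in *fio1-2*, under SUC5 at 0.853 TPM and 1.12 TPM. The order of SUC2, SUC1, SUC3 and SUC4 was the same in all 3 genotypes.

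The balance among the members shifted toward SUC2. Its share of all SUC counts was 48.8% (95% Wilson interval 46.7% to 50.9%) and 49.0% (47.0% to 51.0%) in the Col-0 libraries. It was 61.2% (59.4% to 62.9%) and 61.5% (59.8% to 63.3%) in *fio1-1*, and 61.9% (60.2% to 63.7%) and 61.6% (60.0% to 63.1%) in *fio1-2*. The intervals cover counting error only, and those of the mutants lie above those of Col-0. The SUC family sum was 221 ± 4.44 CPM in Col-0 (mean ± SD, n = 2), against 293 ± 2.68 CPM for *fio1-1* and 282 ± 4.55 CPM for *fio1-2*. Without SUC2 the sum was 113 ± 1.94, 113 ± 0.314 and 108 ± 0.980 CPM. The members in this remainder did not all move alike, since SUC7 was lower in both mutants and SUC3 was higher in *fio1-1*.

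**Figure D3:**
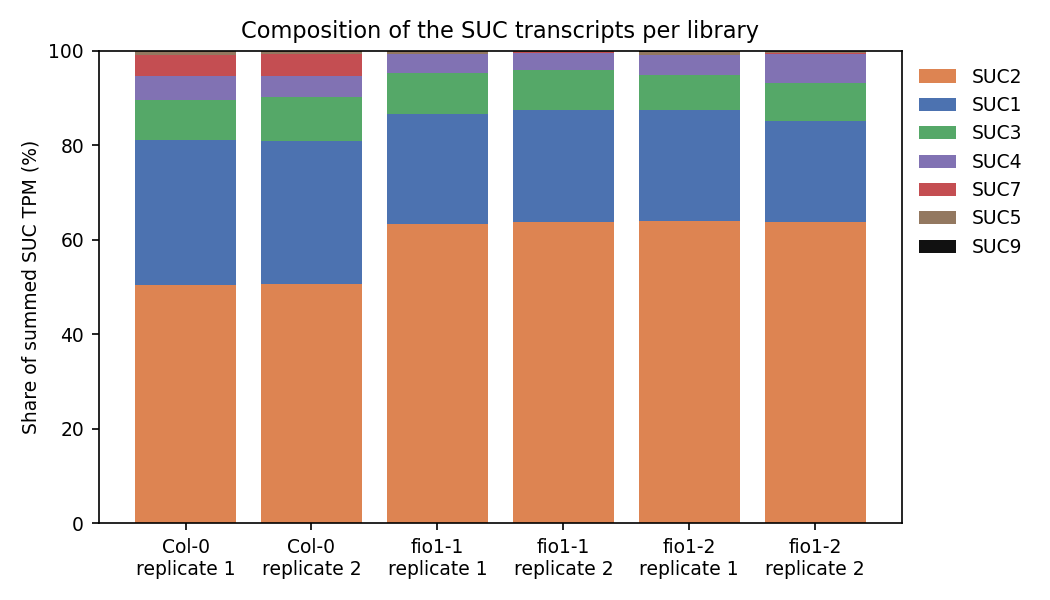
Share of each SUC gene in the summed TPM of the 9 SUC genes (vertical axis, percent) in each of the 6 libraries. SUC2 is the lowest block and fills 50.5% and 50.7% in Col-0 and 63.3% to 63.9% in the mutants, while the block of SUC7 (4.45% and 4.60% in Col-0) shrinks to 0.0822% to 0.134%.

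Other genes of sucrose handling were read from lists, 34 genes in all, of which 32 were tested. In *fio1-1*, 8 passed the test as higher and 6 as lower, beside 28.6% of all tested genes in either direction, the median of the list being 0.04 (log2). In *fio1-2*, 11 passed as higher and 4 as lower, beside 32.5% of all tested genes, with a median of 0.22. Between the mutants, 9 passed as higher in *fio1-2* and 3 as lower, beside 18.1% of all tested genes. Apart from SUS1, SUS5, SUS6, UBC34 and WAKL8, those named below passed with a change of at least 0.58 on the log2 scale in at least 1 comparison.

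Among 8 other sugar carriers, 5 passed as higher and 2 as lower in each mutant. The shares of all tested genes were 14.2% and 14.3% in *fio1-1*, and 16.4% and 16.1% in *fio1-2*. SWEET12 exports sucrose into the cell wall space from which SUC2 takes it up. Its mean level (± SD, n = 2) was 38.8 ± 0.0553 CPM in Col-0, against 68.6 ± 2.23 CPM for *fio1-1* and 56.1 ± 4.01 CPM for *fio1-2*. SWEET12 rose by 0.82 on the log2 scale in *fio1-1* (limma-voom adjusted p = 2.87e-13) and by 0.52 in *fio1-2* (limma-voom adjusted p = 3.36e-07). The hexose symporter STP1 rose by 0.72 and 0.49. The pathogen-responsive hexose symporter STP13 fell, from 54.8 ± 0.321 CPM in Col-0 down to 20.2 ± 0.134 CPM for *fio1-1* and 34.4 ± 0.802 CPM for *fio1-2*, with log2 fold changes of -1.44 and -0.67. For SWEET12, STP1 and STP13 the change was larger in *fio1-1*, and the mutants differed by -0.30, -0.23 and 0.77 (limma-voom adjusted p = 0.00115, 4.07e-07 and 2.4e-08). The difference of SWEET12 between the mutants did not pass without *fio1-2* replicate 2 (-0.22) or under DESeq2 (-0.29).

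Sucrose synthases split sucrose with UDP inside cells. Of 6 genes, 1 passed as higher and 1 as lower in *fio1-1*, against 14.2% and 14.3% of all tested genes. In *fio1-2*, 3 passed as higher, against 16.4% of all tested genes. Set directly against *fio1-1*, *fio1-2* was higher for 3 of the 6 (SUS1, SUS2 and SUS4), and SUS3, SUS5 and SUS6 did not pass. In that comparison 9.31% of all tested genes passed as higher. SUS4 was at 2.94 ± 0.617 CPM in Col-0, 3.03 ± 1.33 CPM in *fio1-1* and 14.3 ± 0.597 CPM in *fio1-2*. SUS4 rose by 2.29 on the log2 scale in *fio1-2* (limma-voom adjusted p = 1.54e-11), and its value in *fio1-1* was -0.01 (limma-voom adjusted p = 0.994), with a difference between the mutants of 2.29 (limma-voom adjusted p = 3.53e-11). SUS2, known from seeds, rose by 1.64 in *fio1-2*, and its difference between the mutants (1.21, limma-voom adjusted p = 0.00143) was lost without *fio1-1* replicate 2 (1.03). SUS3 rose by 0.88 and 1.20. The seed genes, summed above, were highest in *fio1-2* as well, and their part in these values was not tested.

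Of 8 genes for sucrose phosphate synthases and phosphatases, which make sucrose, 1 passed as higher and 1 as lower in *fio1-1* and 1 as higher in *fio1-2*. In *fio1-1* SPS2F fell by 0.66 (log2) (limma-voom adjusted p = 0.00117), a call lost without Col-0 replicate 2 (-0.47). Of 8 tested invertases, which hydrolyse sucrose, 2 passed as lower in *fio1-1*, and 2 as higher and 2 as lower in *fio1-2*. For CWINV6 the *fio1-1* value was -1.15 (log2, limma-voom adjusted p = 0.0363), a call lost when any 1 of the Col-0 or *fio1-1* libraries was left out (-1.28 to -1.03) and under DESeq2 (-1.19, adjusted p = 0.15). Of UBC34 and WAKL8, which act on the SUC2 protein, 1 passed as higher in *fio1-1* and 0 in *fio1-2*. Among all tested genes, 14.2% passed as higher and 14.3% as lower in *fio1-1*, and 16.4% and 16.1% in *fio1-2*. Nothing is read from the counts of these short lists.

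**Figure D4:**
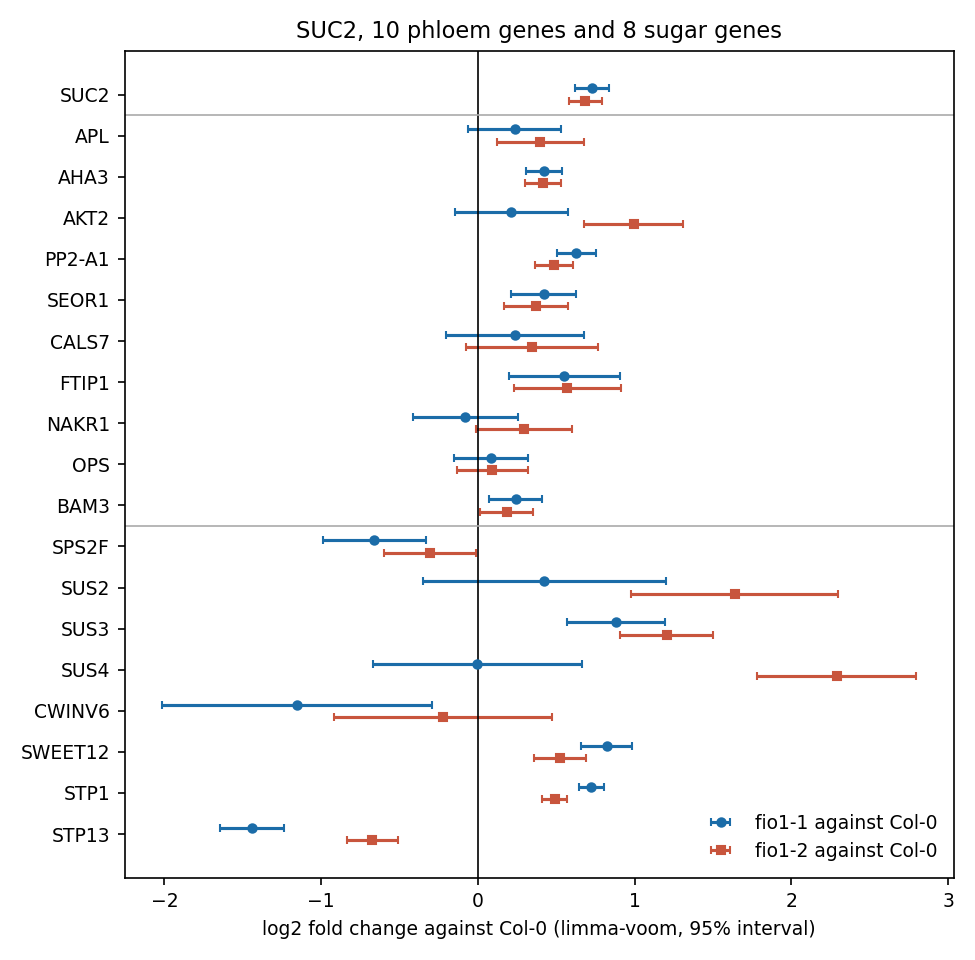
Log2 fold changes against Col-0 with 95% limma-voom intervals for SUC2 (top), 10 phloem genes (middle) and the 8 sugar genes named by size of change (bottom), circles for *fio1-1* and squares for *fio1-2*. SUC2 lies at 0.73 and 0.69, AHA3 at 0.42 and 0.41, and SUS4 at -0.01 and 2.29.

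The genes whose pattern over the 6 libraries lay nearest to SUC2 were sought among 13261 genes with a mean of at least 10 CPM, by Euclidean distance of log2 CPM centred on Col-0. They were AT3G16180 (distance 0.0808), which RefSeq gives the synonym NRT1.12 for a nitrate transporter of leaf phloem, AT4G38260 (0.0819) and AT4G22990 (0.0911). Their log2 fold changes were 0.77 and 0.68, 0.74 and 0.65, and 0.71 and 0.73 in *fio1-1* and *fio1-2*. Nearest to the flat pattern of SUC1 were AT3G02525 (0.0448), AT3G07790 (0.0576) and ECT1 (0.0610). The distances describe these libraries and carry no test.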

How the data were processed

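Reads were trimmed with Trim Galore 0.6.3, aligned to TAIR10 with HISAT2 2.1.0 and counted per gene with HTSeq 0.9.1, per the labels and methods. The deposited values are raw read counts, 1 library per file. The strand setting is not given in the sources used here. The authors' own limma-voom tables hold fold changes and p-values and were not used. The filterByExpr function of edgeR kept 21268 of 32833 loci (99.88% to 99.91% of counts). Counts were scaled by TMM, and all 6 libraries entered 1 limma-voom model with genotype means (3 residual degrees of freedom), Benjamini-Hochberg adjusted over all tested genes. The variance of each gene was moderated with 62.14 prior degrees of freedom estimated over all tested genes. The p-values thus rest mostly on that shared spread and little on the replicates of a single gene. The fit used limma 3.58.1 under R 4.3.3 and was tested on simulated data. The versions of DESeq2 and edgeR were 1.42.0 and 4.0.16. Replicates of a genotype differed by more than sampling noise (mean chi-square per gene 1.48 to 1.97). Names, lengths and coordinates came from RefSeq TAIR10.1 by locus; 21226 tested loci matched.

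Members and lists were chosen with earlier results of these data known. The named genes are the 9 members, FIO1, list genes past the adjusted p with a log2 fold change of at least 0.58 in any comparison, markers needed for a list, and the 3 genes nearest in pattern to SUC1 and SUC2 by distance. SUS1, SUS5, SUS6, UBC34 and WAKL8 were named only to complete the account of their lists. SAG24, WRKY64, AT1G22700 and AT1G71900 were added for their position after values were seen. Alternatives were edgeR, DESeq2, other scalings, filters, a replicate block, a robust prior, fits of the compared groups and leaving out each library.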

Additional observations from a re-analysis of the deposited data

How the results depend on the processing

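Of 269 log2 fold changes of tested members under 15 alternatives in 3 comparisons, 260 kept their direction and their side of the threshold. SUC2 and SUC7 passed in both mutants under all 15, at 0.71 to 0.77 and 0.66 to 0.71 for SUC2 and at -5.38 to -5.02 and -4.79 to -4.56 for SUC7. The fold change of SUC1 in *fio1-2* ranged from -0.173 to 0.00116 with a library left out (the latter without *fio1-2* replicate 2), and the difference of SUC5 between the mutants from -0.0537 (without *fio1-1* replicate 2) to 0.815. With a log2 fold change minimum of 1, 1 member was called in each mutant, and 2, 3 and 2 of the sugar genes were called in the 3 comparisons. With a library left out, 0 to 1 members passed between the mutants, and the sugar genes past the test in *fio1-1* numbered 9 (without Col-0 replicate 2) to 14. With the adjusted p alone, 6073, 6911 and 3844 of all genes passed, in place of 1045, 1262 and 570 called, and DESeq2 called 368 between the mutants. The value of SUS4 in *fio1-1* has no settled sign, at 0.0495 with edgeR, 0.0431 with DESeq2, 0.0338 with upper-quartile factors, 0.0425 with the replicate block, and -0.465 to 0.447 with a library left out (0.20 without Col-0 replicate 1). That of FIO1 between the mutants ranged from -0.265 to 0.0409 (without *fio1-2* replicate 1). Causes were not tested. The replicate numbers did not pair the libraries (r of deviations 0.000309, -0.00432 and -0.0281), and a replicate block left 3, 3 and 0 members past the test and 1025, 1217 and 545 genes called. At 4 and 7 summed counts of SUC7 in the mutants, depth limits the size of its fold. With 2 libraries against 2, no exact permutation test of a single value can give a p under 0.333, so none was made. The spread measured is that between these pools.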

Other observations

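Genes beside the other members did not all move with them. AT1G22700, next to SUC2, had a mean level (± SD, n = 2) of 109 ± 2.67 CPM in Col-0, against 77.6 ± 2.01 CPM for *fio1-1* and 67.4 ± 1.44 CPM for *fio1-2*, whereas SUC2 had higher levels in both mutants. AT1G71900, on the far side of SUC5, was at 21.5 and 21.5 CPM in Col-0, 20.1 and 17.1 CPM in *fio1-1*, and 19.1 and 18.5 CPM in *fio1-2*. Like SUC5, AT1G71900 passed in neither mutant, at log2 fold changes of -0.22 and -0.20 (limma-voom adjusted p = 0.194 and 0.211). These neighbours were chosen by position and after their values were seen.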
